A study of Homo sapiens with 6 samples.

Results

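The cap'n'collar (CNC) activators NFE2L1, NFE2L2 and NFE2L3, their brake KEAP1 and CUL3, the repressors BACH1 and BACH2 and the small MAF partners MAFF, MAFG and MAFK were followed in HCT116 cells given curcumin. The 10 genes were taken by symbol from the 35106 rows of the deposited gene table, and all 10 passed the filter on low counts. HCT116 is a human colon carcinoma line, labelled wild type, and curcumin is the yellow polyphenol of turmeric. Cells received no treatment (3 libraries) or curcumin for 24 h (3 libraries) at a dose of 30 µM, reading as micromolar a unit that the labels spell like micrometres. The labels give the controls no treatment and name no vehicle. HCT116 is a single established line, so the values describe that line alone. The labels do not tie the replicates to separate cultures. The p-values thus reflect the spread among these 6 libraries, part or all of which may be technical.

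NFE2L2 encodes NRF2, the main transcription factor of the antioxidant response. In unstressed cells KEAP1 binds NRF2 and presents it to a ubiquitin ligase built on the scaffold CUL3, so that NRF2 is made and destroyed continuously, and electrophiles that modify KEAP1 cysteines let NRF2 build up without any change in its mRNA. NRF2 and the other CNC factors bind DNA only as dimers with a small MAF protein, a short basic leucine zipper factor with no activation domain of its own. BACH1 and BACH2 take the same partners and the same sites, which they repress until haem releases them.

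Promoter sequences are shown for 3 members that changed after curcumin, MAFF, KEAP1 and BACH1, since their windows held the letters of a site that stress-responsive basic leucine zipper factors bind. Each runs 5′ to 3′ from 250 bases before to 50 bases after a RefSeq transcript start (GRCh38.p14). MAFF and KEAP1 have 2 such windows each and BACH1 has 3, and those not printed held no match of the sites searched. NFE2L1 and NFE2L2, which also changed, have 2 windows each, with no match. Capitals mark the antioxidant response element core TGACNNNGC in MAFF and KEAP1, the AP-1 site TGANTCA in BACH1 and the cyclic AMP response element TGACGTCA in MAFF, searched on both strands.
MAFF promoter, chr22:38201744-38202043, plus strand: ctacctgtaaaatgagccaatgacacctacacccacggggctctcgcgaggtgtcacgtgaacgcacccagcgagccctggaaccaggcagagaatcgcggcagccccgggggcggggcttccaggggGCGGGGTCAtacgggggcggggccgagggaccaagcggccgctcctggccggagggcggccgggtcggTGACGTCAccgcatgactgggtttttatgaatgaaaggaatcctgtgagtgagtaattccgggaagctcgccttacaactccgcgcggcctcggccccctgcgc
KEAP1 promoter, chr19:10502722-10503021, minus strand: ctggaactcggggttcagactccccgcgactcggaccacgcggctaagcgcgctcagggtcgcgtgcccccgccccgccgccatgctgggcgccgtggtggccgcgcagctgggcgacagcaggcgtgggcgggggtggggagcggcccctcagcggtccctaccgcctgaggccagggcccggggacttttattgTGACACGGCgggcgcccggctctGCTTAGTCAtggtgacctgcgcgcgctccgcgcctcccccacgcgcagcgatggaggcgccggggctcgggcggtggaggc
BACH1 promoter, chr21:29298672-29298971, plus strand: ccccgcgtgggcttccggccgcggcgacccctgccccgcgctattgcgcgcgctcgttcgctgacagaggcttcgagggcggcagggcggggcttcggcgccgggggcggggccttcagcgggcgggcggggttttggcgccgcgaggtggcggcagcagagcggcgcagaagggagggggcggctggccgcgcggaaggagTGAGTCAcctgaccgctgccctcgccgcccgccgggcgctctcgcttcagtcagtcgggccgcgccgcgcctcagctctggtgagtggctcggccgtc
In the MAFF window the antioxidant core lay at bases 129 to 137, on the opposite strand, and the cyclic AMP element at bases 197 to 204. The KEAP1 window held the core at bases 197 to 205 and, on the opposite strand, at bases 220 to 228. RefSeq windows were found for 9 of the 10 members, 16 windows in all, and MAFK was not matched. The antioxidant core stood in 2 of the 16 windows, against 13.3% of all 35116 windows, and the AP-1 site in 1 of 16, against 7.71%. The heat shock element, as 3 alternating GAA and TTC units, was found in 0 of the 16 and in 0.490% of all windows. The cyclic AMP element, chosen after the sequences were seen, was in 2 of the 16, those of MAFF and BACH2, and in 1.85% of all windows. None of the printed matches overlapped another, and each is a match of letters, not a measured binding site.

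**Figure D1:**
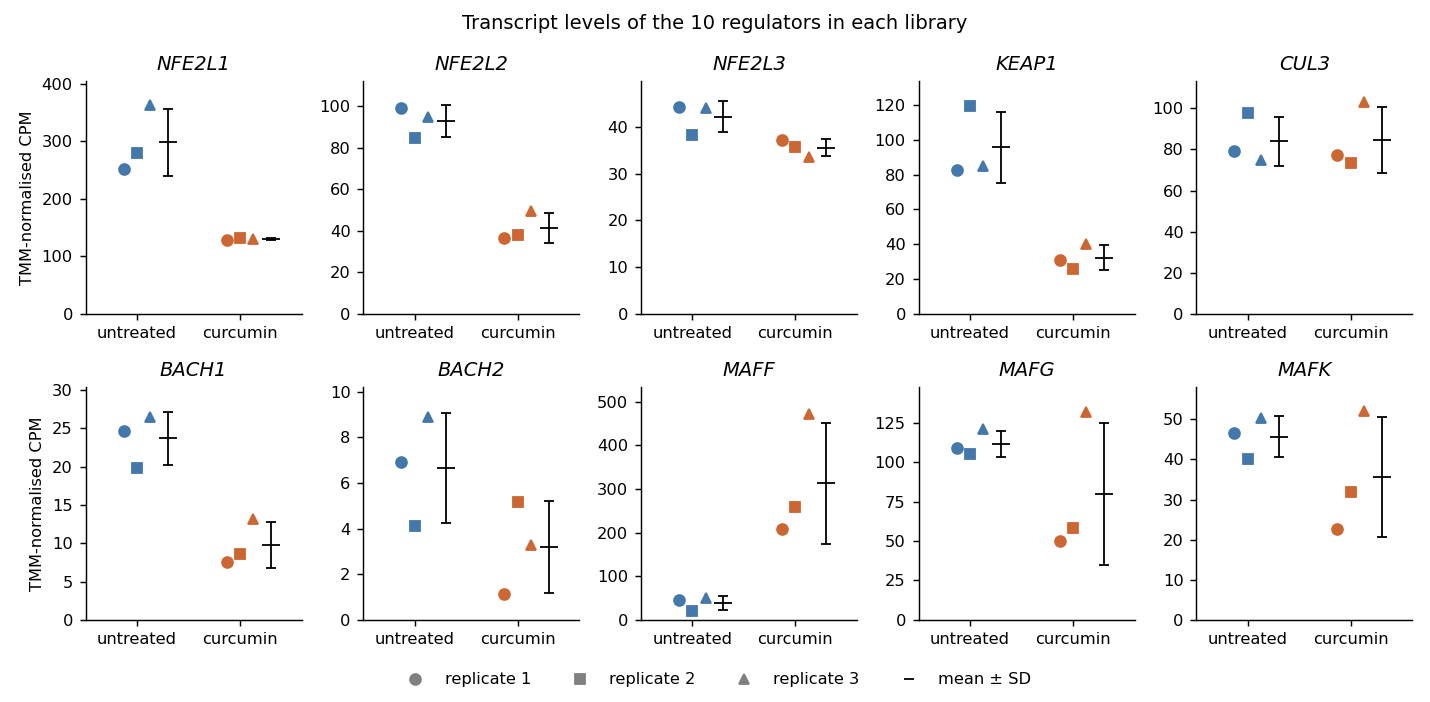
TMM-normalised CPM of each of the 10 regulators in the 3 untreated (blue) and 3 curcumin-treated (orange) libraries, with the symbol giving the replicate number and the bar the mean ± SD; each panel has its own linear axis from 0. The groups did not overlap for NFE2L1, NFE2L2, NFE2L3, KEAP1 and BACH1, which were lower, and for MAFF, which was higher.

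After curcumin 4 of the 10 members fell, 1 rose and 5 did not pass the test (edgeR's quasi-likelihood test, Benjamini-Hochberg adjusted p under 0.05 over all genes). NFE2L1, NFE2L2, KEAP1 and BACH1 each fell, by 2.25- to 2.97-fold, and MAFF rose 8.05-fold. Over all 13718 genes tested, 28.9% were called lower, 27.2% higher and 56.1% in either direction, so the share of members called, 5 of 10, was near the background. The median log2 fold change was −0.77 over the members and −0.04 over all genes tested. The libraries did not overlap between the groups for 6 members, 5 lower and 1 higher, beside 64.0% of all genes tested, 33.1% lower and 30.9% higher. CPM here are counts relative to library size after TMM scaling, which corrects for the make-up of each library, and errors of a log2 fold change are standard errors.

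The libraries held 16663562 to 20311769 counts, and their make-up differed between the groups, with TMM factors of 1.30 to 1.34 without curcumin and 0.716 to 0.804 with it. Scaling by library size alone moved the median log2 fold change of all genes by −0.80, so levels are shares of what a library holds, not amounts per cell, and fewer cells and less RNA per cell cannot be told apart in bulk RNA. Among nonzero estimated counts, 38.0% to 39.2% were whole numbers without curcumin and 58.0% to 59.1% with it, and the part of this difference in the results was not tested. Fold changes also ran with transcript length: over protein-coding genes of at least 5 CPM the median log2 fold change was 0.78 in the shortest of 5 equal groups (up to 2019 bases) and −0.78 in the longest. The labelled epithelial type was checked against 7 markers. EPCAM, KRT8, KRT18, KRT19, CDH1 and CDX2 had at least 103 counts in every library, and VIL1 had at most 12. CDX2 was called lower (log2 fold change −1.40, edgeR adjusted p = 0.00058), while EPCAM, KRT8, KRT18 and KRT19 were called higher and CDH1 was not called. The summed level of 14 markers of other cell types lay between 29.9 and 36.3 CPM without curcumin and between 41.0 and 103 CPM with it. CD3E was at 0 in all 6 libraries and PTPRC had at most 7 counts, while CD68 went from 90, 56 and 65 counts to 197, 249 and 391, ITGAM from 9, 3 and 7 to 10, 23 and 37 and PECAM1 from 0, 3 and 4 to 89, 164 and 320, all 3 called higher. HBA1 was also called higher, with at most 37 counts, and VWF was not called. COL1A1 held most of the untreated sum, at 30.1, 25.6 and 30.3 CPM. It stood at 16.3, 14.9 and 37.5 CPM in treated libraries and was not called. The part of these markers in the results was not tested.

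Of the CNC activators, NFE2L2 and NFE2L1 fell by about as much. NFE2L2 (ENSG00000116044, chromosome 2, 177227595 to 177392697, minus strand, 5 exons in its longest coding transcript, GRCh38) stood at 99.3, 84.6 and 95.1 CPM in untreated replicates 1, 2 and 3 and at 36.7, 37.8 and 49.6 CPM in curcumin replicates 1, 2 and 3. Every treated library lay below every untreated one. The mean went from 93.0 ± 7.57 to 41.3 ± 7.14 CPM (SD, n = 3), a log2 fold change of −1.17 ± 0.16 (edgeR adjusted p = 0.00023). The call was made in all 15 alternative analyses, with log2 fold changes from −1.98 to −1.10. NFE2L1, the membrane-anchored CNC factor that raises proteasome genes when proteasomes fail, was at 252, 279 and 363 CPM in untreated and at 129, 132 and 130 CPM in treated libraries. The treated values were nearly alike, with a coefficient of variation of 1.37% against 19.4% in untreated cells. NFE2L1 (chromosome 17, 48048329 to 48061487) fell by 1.19 ± 0.16 on the log2 scale (edgeR adjusted p = 0.00018) and was called lower in all 15 alternatives. With each library's trend with transcript length removed, its log2 fold change was −0.82, and that of NFE2L2 was −1.22.

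NFE2L3, the CNC factor often raised in colon tumours, did not pass the test. It stood at 44.3, 38.4 and 44.1 CPM in untreated and 37.4, 35.9 and 33.7 CPM in treated libraries. The treated libraries were all the lower ones, by a narrow margin, with a log2 fold change of −0.25 ± 0.15 (95% interval −0.58 to 0.08, edgeR adjusted p = 0.18). It was called lower when libraries were scaled by library size alone (−1.05, adjusted p = 0.00021) or by library size less the 100 most abundant genes (−0.58, adjusted p = 0.0093). With the trend with transcript length removed, it was at −0.072 and not called (edgeR adjusted p = 0.70).

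The brake split between its parts. KEAP1 (ENSG00000079999, chromosome 19, 10486120 to 10503741, minus strand, 6 exons) was at 82.7, 119 and 85.0 CPM in untreated libraries and at 30.9, 25.7 and 39.9 CPM in treated ones, with no overlap. It fell from 95.6 ± 20.4 to 32.2 ± 7.20 CPM, a log2 fold change of −1.57 ± 0.21 (edgeR adjusted p = 0.00018), called in all 15 alternatives. Among the members KEAP1 had the most negative log2 fold change. CUL3 (chromosome 2, 224470150 to 224585397) was at 79.4, 97.6 and 74.8 CPM in untreated and at 77.4, 73.3 and 103 CPM in treated libraries, and the groups overlapped. Its log2 fold change was 0.01 ± 0.18 (95% interval −0.38 to 0.40, edgeR adjusted p = 0.96). CUL3 was called lower with library size alone (−0.80, adjusted p = 0.0018) and higher once each library's trend with transcript length was removed (0.65, adjusted p = 0.0083). Its longest coding transcript has 6741 bases.

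A ratio of members within a library does not depend on how libraries are scaled. The trend with transcript length does not cancel in it, and no ratio was recomputed with that trend removed. Per length of transcript, KEAP1 exceeded CUL3 in all 3 untreated libraries (log2 ratio 1.25, 1.48 and 1.37) and was below it in all 3 treated ones (−0.13, −0.32 and −0.18). That ratio fell by 1.58 on the log2 scale (two-sided exact permutation p = 0.1, which is the lowest value possible with 3 libraries a group, 0.2 after adjustment over 8 ratios). NFE2L2 over CUL3 fell by 1.18 in the same scale-free way (exact permutation p = 0.1). NFE2L2 over KEAP1, the factor over its brake, had log2 ratios of 0.32, −0.44 and 0.21 in untreated and 0.30, 0.61 and 0.36 in treated libraries. The groups overlapped, and the difference of 0.39 was not distinguishable from the spread between libraries (exact permutation p = 0.2, adjusted 0.32).

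BACH1 fell as well. BACH1 (ENSG00000156273, chromosome 21, 29194071 to 29630751, plus strand, 5 exons) was at 24.6, 19.9 and 26.5 CPM in untreated and 7.55, 8.65 and 13.1 CPM in treated libraries. The highest treated library lay below the lowest untreated one. The mean went from 23.7 ± 3.43 to 9.78 ± 2.96 CPM, a log2 fold change of −1.28 ± 0.24 (edgeR adjusted p = 0.0014). All 15 alternatives called it lower, the smallest change being −0.76 with the length trend removed (adjusted p = 0.018). The log2 ratio of NFE2L2 to BACH1 per length, activator over repressor, was 3.03, 3.11 and 2.86 in untreated and 3.30, 3.14 and 2.93 in treated libraries, which overlapped (difference 0.13, exact permutation p = 0.4). With the length trend removed, NFE2L2 fell by more (log2 fold change −1.22) than BACH1 (−0.76), and the ratio was not recomputed.

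BACH2, best known as a repressor of lymphoid genes, was the least abundant member. It stood at 6.94, 4.11 and 8.89 CPM in untreated and 1.12, 5.16 and 3.28 CPM in treated libraries, and the groups overlapped. Its log2 fold change of −1.06 ± 0.50 had a wide 95% interval, −2.17 to 0.05 (edgeR adjusted p = 0.094). The call changed to lower in 4 of 15 alternatives: both other library size scalings, no filter, and without curcumin replicate 2 (−1.61, adjusted p = 0.033). With the length trend removed, the log2 fold change of BACH2 was −0.22 (edgeR adjusted p = 0.73).

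MAFF was the only member that rose, and it rose by more than any other member changed. MAFF (ENSG00000185022, chromosome 22, 38200767 to 38216511, plus strand, 3 exons), a stress-inducible small MAF gene, was at 45.8, 20.6 and 49.98 CPM in untreated libraries and at 208, 258 and 471 CPM in treated ones. The lowest treated library exceeded the highest untreated one, while untreated replicate 2 and curcumin replicate 3 stood away from the rest of their groups. The mean rose from 38.8 ± 15.9 to 312 ± 140 CPM, a log2 fold change of 3.01 ± 0.38 (edgeR adjusted p = 0.00013), which ranked 304 by size of rise among the genes tested. The rise was called in all 15 alternatives, from 2.19 with library size alone to 3.23, and it was 2.59 without curcumin replicate 3.

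MAFG and MAFK, the other small MAF genes, did not pass, and their values depended on curcumin replicate 3 and on the processing. MAFG was at 109, 105 and 121 CPM in untreated and at 50.2, 58.0 and 132 CPM in treated libraries, the last of these above every untreated value. Its coefficient of variation was 7.41% in untreated and 56.2% in treated libraries. The log2 fold change was −0.48 ± 0.31 (95% interval −1.17 to 0.21, edgeR adjusted p = 0.21), and without curcumin replicate 3 it was −1.04 (adjusted p = 0.00030). MAFK was at 46.7, 40.1 and 50.3 CPM in untreated and at 22.7, 32.0 and 52.1 CPM in treated libraries, again with curcumin replicate 3 above the untreated range. Its log2 fold change was −0.36 ± 0.27 (95% interval −0.95 to 0.23, edgeR adjusted p = 0.27), and −0.74 without that library (adjusted p = 0.0083). MAFG was also called lower with the replicate number as a block (−0.62, adjusted p = 0.044) and with no filter (−0.57, adjusted p = 0.038), and both genes with library size alone (−1.31 and −1.19) or with the top 100 genes left out of it (−0.83 and −0.70). With the length trend removed, MAFG was at −0.080 (edgeR adjusted p = 0.84) and MAFK at −0.26 (adjusted p = 0.45), neither called. With curcumin replicate 3 left out, 6 members were lower in place of 4, beside 4306 of all 13973 genes then tested. Exons of MAFG overlap SIRT7 and those of MAFK overlap TMEM184A in GENCODE 29, so reads of these pairs may have been shared out upstream. AGPS overlaps NFE2L2 and GRIK1 overlaps BACH1 in the same way.

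**Figure D2:**
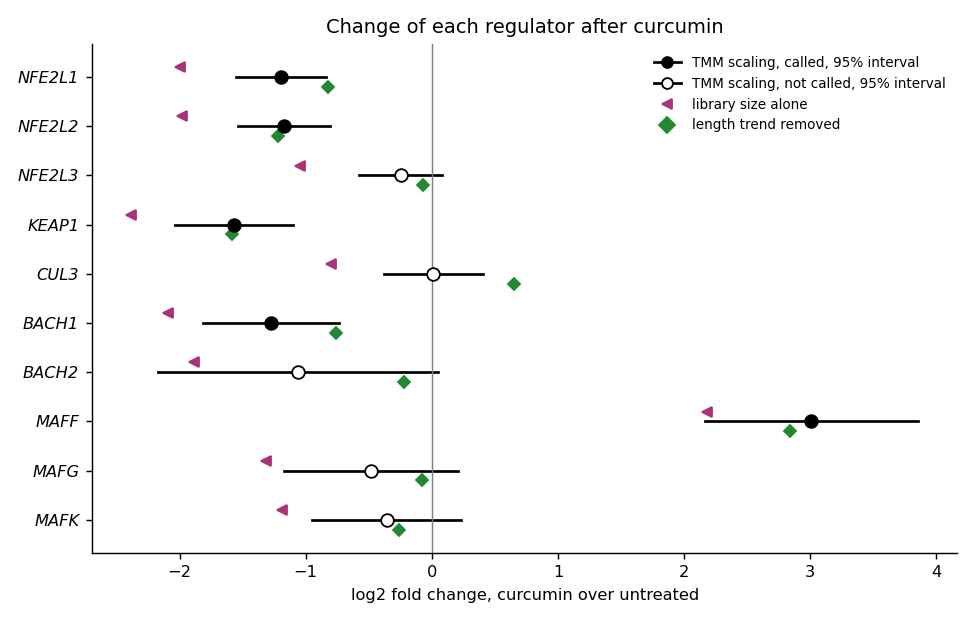
Log2 fold change of each regulator, curcumin over untreated, with its 95% interval (black; filled where called at an adjusted p under 0.05), beside the value with library size alone (purple) and with the length trend removed (green). NFE2L1, NFE2L2, KEAP1 and BACH1 lay below 0 and MAFF above 0 under each of these, while CUL3 ran from −0.80 to 0.65.

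Curcumin replicate 3 was the highest treated library for 7 of the 10 members, and untreated replicate 2 the lowest untreated library for 7. Curcumin replicate 1 was the lowest treated library for 7 members, and untreated replicate 3 the highest untreated library for 6. For BACH1, MAFF, MAFG and MAFK replicate 3 was the highest in both groups. These orders were not counted over all genes, so whether they are particular to the members was not tested. The 4 falls and the rise of MAFF were called with any 1 of these libraries left out.

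The make-up of the small MAF pool turned over. Taking each gene per length of transcript, MAFF made up 34.1%, 20.2% and 34.0% of small MAF transcripts in untreated libraries and 83.3%, 83.1% and 82.0% in treated ones. This share rose from 29.4 ± 8.03% to 82.8 ± 0.744% (SD, n = 3; exact permutation p = 0.1, the smallest possible, 0.2 after adjustment), and it does not depend on the scaling. The share was not recomputed with the length trend removed, where the log2 fold changes were 2.84 for MAFF, −0.080 for MAFG and −0.26 for MAFK. MAFG went from 43.9 ± 6.003% to 10.2 ± 1.06% of the pool and MAFK from 26.7 ± 2.04% to 7.02 ± 0.523%. The log2 ratio of MAFF to MAFG rose by 3.64, with all 3 libraries of each group apart, while that of MAFK to MAFG differed by 0.18 (exact permutation p = 0.3) with overlapping groups.

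Sums over the 3 small MAF genes and over the 5 CNC and BACH genes were compared after the single values were seen. The small MAF sum was 53.9, 41.0 and 59.0 CPM per kb in untreated and 100.3, 124.6 and 230.8 CPM per kb in treated libraries. The CNC and BACH sum was 104.6, 102.5 and 126.9 CPM per kb in untreated and 51.4, 52.7 and 56.3 CPM per kb in treated libraries. Small MAF transcripts per CNC or BACH transcript went from 0.460 ± 0.0580 to 2.80 ± 1.14, with no overlap (exact permutation p = 0.1). The difference of 2.34 became 1.70 without curcumin replicate 3. Within the CNC and BACH sum NFE2L1 held 55.8 ± 4.88% and 51.1 ± 2.47%, NFE2L2 29.5 ± 3.54% and 27.0 ± 3.34%, and NFE2L3 10.4 ± 1.05% and 18.1 ± 1.76%.

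**Figure D3:**
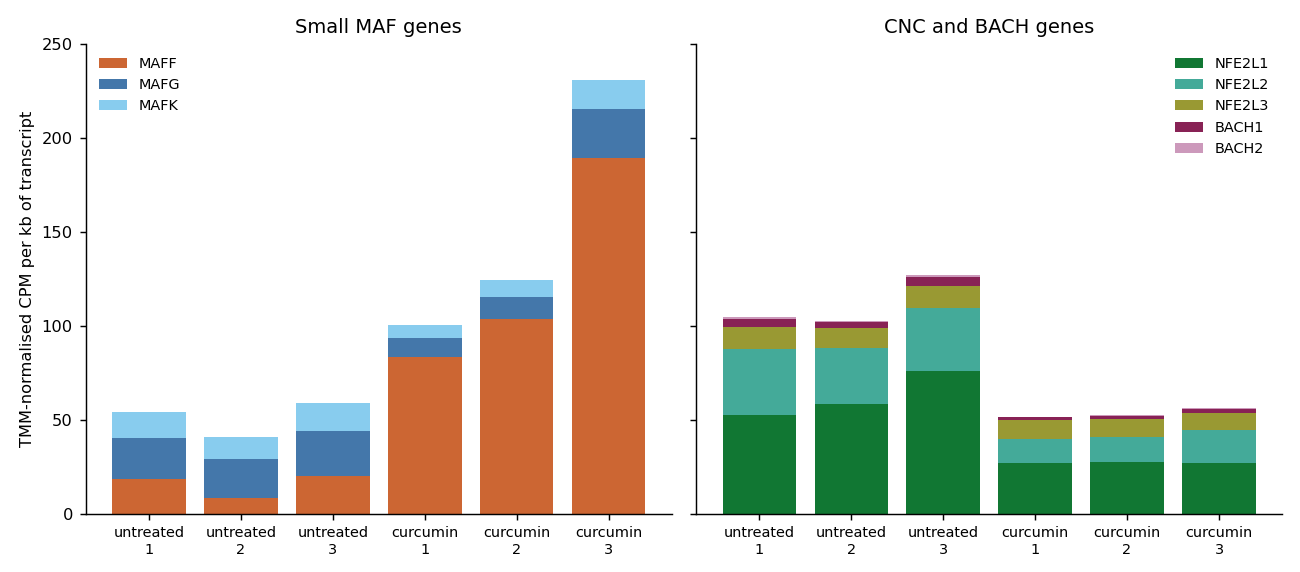
Stacked TMM-normalised CPM per kb of transcript in each library, for the small MAF genes (left) and the CNC and BACH genes (right), on one linear axis. MAFF fills 82.0% to 83.3% of each treated small MAF bar, and the CNC and BACH bars of treated cells reach at most 56.3 CPM per kb.

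The order of the members by level per length changed with these shifts. In untreated cells NFE2L1 led at 62.4 ± 12.1 CPM per kb, followed by NFE2L2 (32.6 ± 2.65) and KEAP1 (32.4 ± 6.91), whose library ranges overlapped. MAFG followed at 22.2 ± 1.64 CPM per kb. MAFF (15.6 ± 6.39), MAFK (13.6 ± 1.54), CUL3 (12.5 ± 1.79) and NFE2L3 (11.5 ± 0.910) each overlapped their neighbour, and BACH1 (4.10 ± 0.595) and BACH2 (0.730 ± 0.264) stood below. In treated cells MAFF led at 125 ± 56.1 CPM per kb and NFE2L1 came next at 27.3 ± 0.374. MAFG, NFE2L2, CUL3, KEAP1, MAFK and NFE2L3 lay between 15.9 and 9.67 CPM per kb, each overlapping the next in order. BACH1 (1.69 ± 0.513) and BACH2 (0.350 ± 0.222) were again the lowest.

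Across the 6 libraries the genes whose log2 CPM ran most like NFE2L2 were SPRED1, an inhibitor of RAS signalling (Pearson r = 0.999), VHL, the substrate receptor for hypoxia-inducible factors (r = 0.999), and PWWP2B (r = 0.998). The 6 points fall into the groups and share their libraries, and 2143 of 10762 genes compared had an r above 0.9. SPRED1 went from 61.3 ± 6.90 to 21.3 ± 5.84 CPM and VHL from 71.3 ± 11.5 to 18.3 ± 4.93 CPM.

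Partners of the members moved in both directions. Of 37 genes that degrade, process or assist these factors or are their large MAF relatives, 35 were tested, 6 rose and 15 fell (median log2 fold change −0.41), beside 27.2% higher and 28.9% lower among all genes tested. Under scaling by library size alone the counts were 2 and 26, beside 9.62% higher and 56.5% lower among all genes. After removal of the length trend they were 7 and 9, beside 26.1% and 22.0%, which is near the background. Among the 18 genes of NRF2 degradation 5 rose and 8 fell. SQSTM1 (p62), which binds KEAP1 and draws it into autophagy, rose from 331 ± 19.8 to 857 ± 24.8 CPM (log2 1.37 ± 0.13, edgeR adjusted p = 2.9e-05). BTRC, the adaptor of a KEAP1-independent ligase for NRF2, fell from 45.3 ± 2.92 to 20.96 ± 2.84 CPM. RBX1, the ring subunit of the CUL3 ligase, was at 23.2 ± 5.46 and 32.0 ± 5.64 CPM (edgeR adjusted p = 0.096). NEDD8, the modifier that switches cullins on, rose by 1.078 ± 0.16 and UBE2M, its conjugating enzyme, by 0.91 ± 0.15, neither called with library size alone (adjusted p = 0.20 and 0.61) or with the length trend removed (0.25 and 0.11).

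Of the 6 genes that process or turn over NFE2L1, 0 rose and 3 fell, beside 27.2% higher and 28.9% lower among all genes tested. DDI2, the protease that cuts NFE2L1 into its active form, stood at 38.1, 52.1 and 50.4 CPM in untreated and 7.998, 11.7 and 13.5 CPM in treated libraries. It fell by 2.08 ± 0.23 on the log2 scale (edgeR adjusted p = 5.6e-05), and by 1.19 with the length trend removed. Both genes that serve BACH1 degradation, FBXO22 and FBXL17, did not pass. Among NFE2 and the 6 coactivator or receptor genes 4 fell and 0 rose, against the same background, with CHD6, a chromatin remodeller, at −1.76 ± 0.20 (−0.83 with the length trend removed) and RXRA, a nuclear receptor that binds NRF2, at −1.10 ± 0.14. NFE2, the CNC factor of blood cells, had 1.01 ± 0.474 and 0.209 ± 0.239 CPM and did not pass (edgeR adjusted p = 0.053). Its treated libraries held only 0, 2 and 6 counts. NFE2 was called lower in 5 of 14 alternatives, among them without curcumin replicate 3 (adjusted p = 0.017). MAF, a large MAF gene, was listed at 0 in every library.

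Target genes moved in both directions. Of 37 genes known to be driven by NRF2 or held down by BACH1, 33 were tested, 16 rose and 4 fell (median 0.57), beside 27.2% higher and 28.9% lower among all genes tested. With library size alone 9 rose and 13 fell, beside 9.62% and 56.5%. HMOX1, the haem-degrading enzyme that BACH1 represses, was at 20.5, 20.6 and 22.9 CPM in untreated and 161, 199.9 and 387 CPM in treated libraries, a log2 fold change of 3.54 ± 0.31 (edgeR adjusted p = 1.8e-05). HMOX1 and MAFF shared their order over the treated libraries, with curcumin replicate 3 highest and replicate 1 lowest. That order was not particular to them: NFE2L2, BACH1, MAFG and MAFK had it, as did the targets GCLM, SRXN1, SLC7A11 and TXNRD1. TKT, a pentose phosphate enzyme, and EPHX1, an epoxide hydrolase, rose by 1.56 ± 0.14 and 1.39 ± 0.13.

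All 4 targets that fell were among the genes named by rule. GCLC, the catalytic subunit of glutathione synthesis, fell from 68.1 ± 2.18 to 23.6 ± 5.06 CPM and SLC7A11, the cystine transporter, from 129.7 ± 48.9 to 42.9 ± 16.1 CPM, the latter by 0.75 with the length trend removed in place of 1.597 on the log2 scale. SLC48A1, a haem transporter, fell by 0.62 ± 0.20, a call lost without untreated replicate 1 or 3 or curcumin replicate 2 (edgeR adjusted p = 0.0501, 0.084 and 0.052). TXNRD1, thioredoxin reductase, had −0.52 ± 0.20 (edgeR adjusted p = 0.047), a call lost in 8 alternatives, among them each library left out but curcumin replicate 3. NQO1 (log2 0.24 ± 0.18), GCLM (0.57 ± 0.28) and SRXN1 (0.23 ± 0.31) did not pass, and all 3 turned negative with library size alone (−0.56, −0.25 and −0.61).

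**Figure D4:**
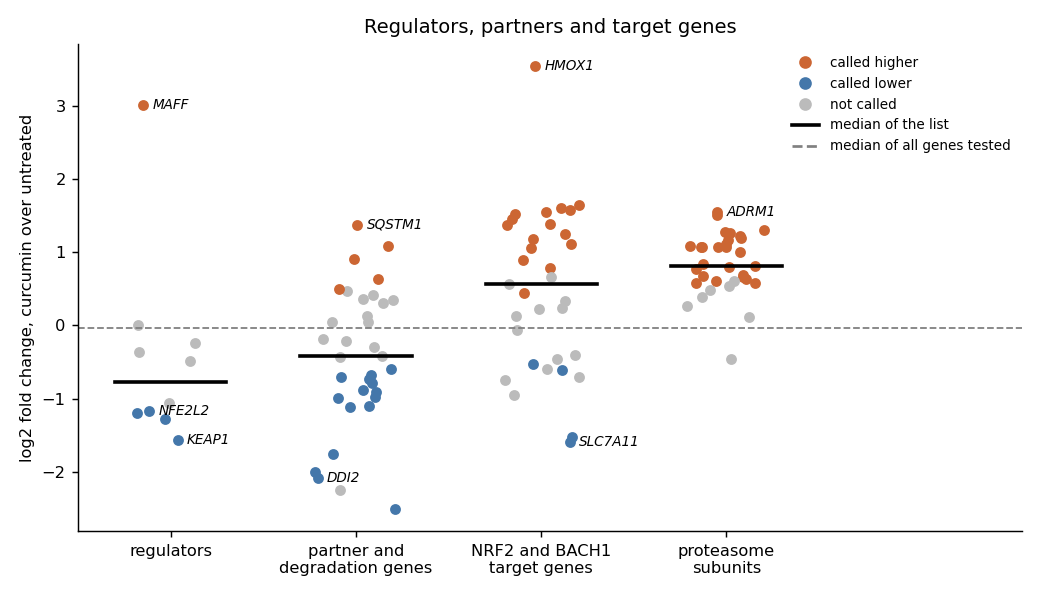
Log2 fold change of the tested genes among the regulators, their partners (1 not drawn), the NRF2 and BACH1 targets and the proteasome subunits, coloured by call, with the median of each list (black bar) and of all genes tested (dashed line at −0.04). The medians were −0.77, −0.41, 0.57 and 0.82.

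Proteasome subunits are the genes NFE2L1 is known to raise when proteasomes are inhibited. Of 33 tested 26 rose and 0 fell (median 0.82), beside 27.2% higher and 28.9% lower among all genes tested. Of these subunits 21 have a transcript of at most 2019 bases, and the group of protein-coding genes that short had a median of 0.78. The part of transcript length in the subunits' rise was tested only by removing the trend, which left 13 higher and 1 lower, beside 26.1% and 22.0% of all genes. Library size alone gave 5 higher and 2 lower, beside 9.62% and 56.5%. ADRM1, a ubiquitin receptor of the cap, rose from 146 ± 28.3 to 427 ± 19.8 CPM (log2 1.54 ± 0.16, edgeR adjusted p = 4.6e-05). PSMD4, another ubiquitin receptor, rose by 1.28 ± 0.17. The core subunits PSMB1 and PSMB7 rose by 1.30 ± 0.17 and 1.20 ± 0.16, neither of them called after removal of that trend (edgeR adjusted p = 0.15 and 0.26).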

How the data were processed

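Total RNA was extracted from cells in TRIzol and libraries were made with a SMARTer mRNA-Seq kit, per the labels' protocols. The authors deposited estimated counts per gene (expected counts, many not whole), unscaled between libraries. The aligner, counter and strand setting were not given in the sources used. Builds named in the submitters' processing notes are GRCm38 and mm10, both mouse, but all 35106 rows carry human identifiers, so the table was read as human, with gene positions and lengths (longest coding transcript) from GENCODE 29 (GRCh38) for 35003 of them.

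Counts were rounded, filtered with filterByExpr (minimum count 10, minimum total 15), scaled by TMM and tested with edgeR 4.0.16 (quasi-likelihood test, R 4.3.3) over all 6 libraries. The standard error is the log2 fold change over the square root of F. Alternatives were RLE factors, library size alone or less the top 100 genes, no filter, a minimum mean of 50 counts, DESeq2 1.42.0, limma-voom 3.58.1, a replicate block, a loess length trend removed (span 0.3) and each library left out. On simulated data with the depths of these 6 libraries, 13514 genes were tested. The test called 57 of 99 genes changed 2-fold, 88 of 97 changed 4-fold and 10 of 13318 unchanged. The simulation changed only these few genes, about as many up as down, with no shift in library make-up between the groups. In the real data 56.1% of genes were called and the make-up shifted, so these rates may not carry over. Replicates differed by more than sampling noise (chi-square per degree of freedom 11.6 to 75.3). A floor of 3 counts was 0.148 to 0.180 CPM before TMM scaling, covering counting error only, since PCR copies cannot be told from separate molecules.

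The members and lists were chosen with earlier results of these data known. Genes named are the 10 members, up to 4 called genes per list and direction with the smallest adjusted p, some textbook genes of the pathway (HMOX1, NQO1, GCLC, GCLM, SLC7A11, TXNRD1, SRXN1, SQSTM1, RBX1, BTRC, NFE2) and the 3 genes most like NFE2L2 with a mean of at least 5 CPM. Some genes that these rules select are not reported here.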

Additional observations from a re-analysis of the deposited data

How the results depend on the processing

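The calls of NFE2L1, NFE2L2, KEAP1, BACH1 and MAFF were made in all 15 alternatives each. With library size alone 1320 genes (9.62%) were higher and 7747 (56.5%) lower. In that setting 9 members were lower, among them NFE2L3 (−1.05), CUL3 (−0.80), BACH2 (−1.88), MAFG (−1.31) and MAFK (−1.19). Partners then had 2 higher and 26 lower, targets 9 and 13 and proteasome subunits 5 and 2, while NQO1 (−0.56), GCLM (−0.25), SRXN1 (−0.61) and RBX1 (−0.33) turned negative. Leaving the 100 most abundant genes out of the library size gave 8 lower members (NFE2L3 −0.58, BACH2 −1.41, MAFG −0.83, MAFK −0.70, and CUL3 at −0.32, not called), 8 lower targets and 17 higher and 1 lower proteasome subunits, with NQO1 at −0.088 and SRXN1 at −0.12. Of all 13718 genes tested, 2635 were then higher and 5465 lower. With no filter 7 targets and 1 proteasome subunit were lower, beside 4389 of all 21267 genes. CUL3 was then at −0.071, BACH2 at −1.14 and MAFG at −0.57. With the length trend removed 2 members were higher (CUL3 at 0.65), 9 partners lower and 13 proteasome subunits higher and 1 lower, and RBX1 (−0.36) and NEDD8 (−0.20) turned negative. Over all genes 26.1% were then higher and 22.0% lower. The cause of these changes was not tested.

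Deviations of same-numbered libraries from their group means had correlations of 0.038, 0.020 and 0.10, and those of the other pairs ran from −0.080 to 0.036. All were small, and the labels do not say that the numbers pair samples, so no pairing was used in the main fit. With the replicate block 5 members were lower in place of 4, MAFG being added (−0.62), beside 4011 of all 13718 genes tested.

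Leaving out each library gave 4 to 10 higher partners (10 without curcumin replicate 3), 2 to 5 lower targets (2 without untreated replicate 1) and 0 to 1 lower proteasome subunits. Over all genes 3253 to 3843 were then higher and 3369 to 4306 lower. Log2 fold changes then ran from −0.15 to 0.12 for CUL3 (−0.042, −0.081 and −0.15 without untreated replicates 1 and 3 and curcumin replicate 3), −1.61 to −0.66 for BACH2, −1.04 to −0.24 for MAFG, −0.74 to −0.12 for MAFK and −0.28 to 0.49 for SRXN1, and the log2 ratio of NFE2L1 to NFE2L2 differed by −0.16 to 0.14 (−0.068 and −0.066 without curcumin replicates 1 and 2, 0.0038 over all libraries, exact permutation p = 1). Adding 0.5 counts or keeping unrounded counts turned no ratio. No ratio was recomputed with the length trend removed. With 3 libraries a group no ratio could pass an exact test.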
